A study of Citrus sinensis with 6 samples.

Results

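A set of 163 genes in leaves of sweet orange stood high in the same 3 of 6 RNA-seq libraries, CK2, CK3 and T2, and low in CK1, T1 and T3, so that its pattern crossed the labelled boron supply of the plants. The set was 163 of the 29875 genes in the table. A gene was taken when its lowest y among CK2, CK3 and T2, with y as log2(FPKM + 1), was above its highest y among CK1, T1 and T3. The difference of the 2 means of y had to be at least 1.5 and the mean FPKM over CK2, CK3 and T2 at least 5. FPKM scales a count of reads by gene length and by the mapped reads of the library. The genes were thus chosen by their FPKM in these same libraries, and the values behind that choice are given as a description, without a test.

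The plants were tissue-cultured sweet orange (Citrus sinensis) on MS nutrient solution at 25 °C, and leaves were taken on day 25. CK was grown with sufficient boron at 0.25 mg/L and T with deficient boron at 0.01 mg/L, with 3 libraries in each group. The series' design gives these numbers as boron, the study's methods give them as boric acid, and the treatment text in the labels gives the 0.01 mg/L level in every library. Titles of CK libraries name leaf blades where those of T name leaf, so a difference in the part sampled cannot be told apart from boron supply. No genotype differed between the groups in the labels. Whether separate plants stood behind the 3 libraries of each group is not stated in the labels, and a p-value here measures the spread between these libraries only.

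Boron is known for cross-linking pectin in the primary wall of growing cells. A young leaf grows by division and then by expansion, and its epidermis makes stomata while cells still divide. In Arabidopsis, a protodermal cell divides asymmetrically, secreted peptides and membrane receptors space the divisions, and a guard mother cell divides once more into a pair of guard cells, under the control of D-type cyclins and MYB transcription factors. Genes annotated to this stomatal lineage were 8 of the set, and wall, flavonoid, lipid and signalling genes were among its other annotated genes. Gene roles are given as the GO or KEGG annotation of the table states them, and these annotations are not identities of the genes.

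The libraries held 17769864 to 24127985 mapped reads, recovered from the steps of the FPKM values, so that 1 read in a gene of 1000 bases was worth 0.0414 to 0.0563 FPKM. CK2, CK3 and T2 included the 2 deepest libraries, CK3 and T2, and CK2 was 1 of the 3 shallowest. All 6 libraries carried abundant leaf transcripts, with 12587 to 20477 summed FPKM for photosynthesis genes and 9884 to 20167 for antenna proteins. Over the 13154 genes with a mean FPKM of at least 5 in either set of 3 libraries, y correlated among CK1, T1 and T3 with a Pearson's r of 0.919 to 0.943, and among CK2, CK3 and T2 with 0.832 to 0.846. Pairs of a high and a low library ran from 0.814 to 0.915. T1 with T2 (0.915), CK1 with CK2 (0.908) and CK1 with T2 (0.862) were above every pair of high libraries. So were CK3 with T3 (0.853) and CK2 with T3 (0.851). As a description over the same genes, the low libraries were thus close to each other, and the high ones were not a cluster of their own. Whether any libraries were exchanged is not stated in the labels and was not tested. With the labels of CK1 and T2 exchanged, the high and low libraries would be the boron groups themselves, and every T against CK value here would be another.

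The median FPKM of the 163 genes was 11.1 in CK2, 13.4 in CK3 and 18.3 in T2. It was 3.53 in CK1, 4.38 in T1 and 1.48 in T3. Their summed level was 4286, 4131 and 5218 FPKM in the high libraries, and 1196, 1433 and 579 FPKM in CK1, T1 and T3. T2 from boron-deficient plants was thus the highest library and T3, of the same group, the lowest. T2 was the highest library for 105 of the 163 genes (64.4%), against 25.3% of the 16421 genes that were tested, those reaching 1 FPKM in 3 or more libraries. T3 was the lowest for 137 (84.0%), against 15.5% of those genes. The rule lets only CK2, CK3 or T2 be highest and only CK1, T1 or T3 lowest, while the tested genes were free in both. The 2 shares over all tested genes are thus not a like comparison. Within the set, CK3 was the highest for 31 genes and CK2 for 27, and CK1 was the lowest for 14 and T1 for 12. T2 highest and T3 lowest held together for 93 genes, and the full order from T3 through CK1, T1, CK2 and CK3 to T2 was that of 44.

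**Figure D1:**
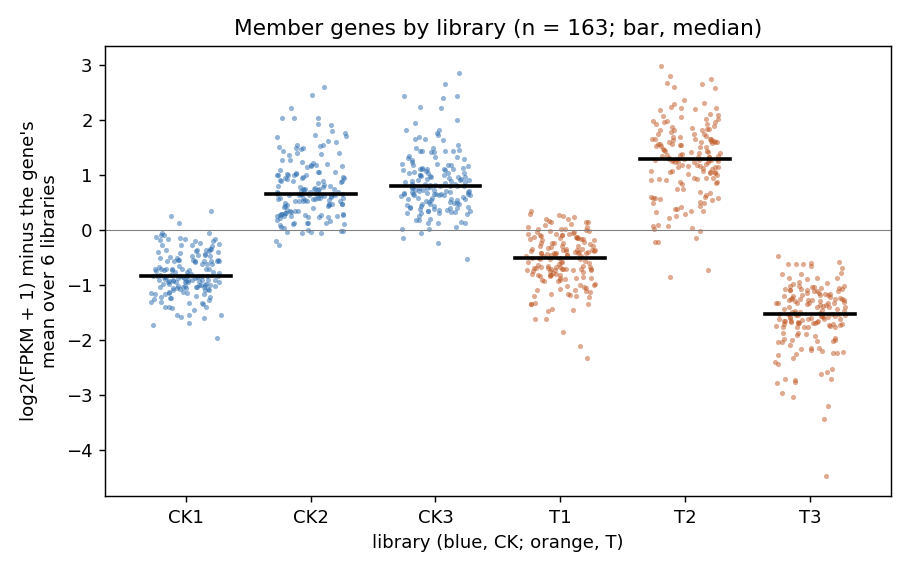
Each point is 1 of the 163 genes in 1 library, as log2(FPKM + 1) minus the mean of that gene over the 6 libraries, with CK in blue, T in orange and a bar at the median. The medians stand above 0 in CK2, CK3 and T2 and below 0 in CK1, T1 and T3, with T2 highest (1.30) and T3 lowest (-1.53).

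The difference of the 2 means of y ran from 1.51 to 3.56, with a median of 1.84, and was at least 2 in 57 genes. On the linear scale the mean FPKM of the high libraries was 2.83 to 39.1 times that of the low ones, with a median of 4.54. The 3 genes just inside the threshold, Cs_ont_4g010640 (thermospermine oxidase), Cs_ont_6g016110 (a guanyl-nucleotide exchange factor) and Cs_ont_4g002870 (RNA binding), had differences of 1.51. The 3 just outside, Cs_ont_1g004570, Cs_ont_2g005690 and Cs_ont_5g009810, had 1.4996, 1.4995 and 1.4969. The gap between the lowest high library and the highest low one had a median of 0.78 and was as small as 0.000818 in y. The mean FPKM over the high libraries was under 20 in 104 genes and at least 100 in 7. In the library where a gene was lowest, 31 of the 163 had under 10 reads and 2 had none, whereas the lowest of the 3 high libraries held at least 20 reads for every gene.

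Among all 16421 tested genes, 14.5% had every one of CK2, CK3 and T2 above every one of CK1, T1 and T3, and 5.05% had the opposite. The mirror set, made by the same thresholds for genes high in CK1, T1 and T3, held 94 genes. Of the 13154 genes with a mean FPKM of at least 5 in either set of libraries, 1.24% were thus in the set high in CK2, CK3 and T2 and 0.715% in the mirror set. A GO or KEGG annotation was held by 81 of the 163 genes (49.7%), against 59.7% of the 13154. The median gene length recovered from the FPKM values was 1715 bases in the set and 2067 bases over the 13154 genes.

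Genes annotated to stomatal complex development, the making of guard cells and their neighbours, were found in the set. Of 22 such genes with a mean FPKM of at least 5 in either set of libraries, 8 (36.4%) were in the set. Over all genes with that mean the share was 1.24%. The mirror set held 0 of the 22, too few genes to set apart from its 0.715% over all genes. This term was picked after the values were seen, so the share in the set is a description and has no test. Of the 35 genes annotated to stomatal movement with that mean, 0 were in the set, which is too few genes to set apart from the 1.24% over all genes.

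The receptor and ligand side of this group held Cs_ont_1g013840, annotated to receptor kinase and peptide binding, stomatal patterning and asymmetric cell division. Its FPKM was 5.95, 12.1 and 14.9 in CK2, CK3 and T2 and 0.348, 1.74 and 0.456 in CK1, T1 and T3. It was near 0 in CK1 and T3, and its difference of means of y was 2.69, the largest of the 8. Cs_ont_4g023170, a transmembrane receptor kinase annotated to stomatal morphogenesis, transpiration and leaf polarity, stood at 23.3, 33.4 and 59.0 FPKM in CK2, CK3 and T2. Its low libraries were at 4.66 (CK1), 11.3 (T1) and 2.43 FPKM (T3), and T2 and T3 of the same group held the highest and the lowest value. Cs_ont_7g015640, annotated to receptor kinase binding, cell-cell signalling and stomatal patterning, was the most abundant of the 8. It stood at 192, 97.3 and 69.0 FPKM in CK2, CK3 and T2, against 45.8, 30.6 and 22.5 FPKM in CK1, T1 and T3. It was the single one of the 8 that was highest in a library other than T2.

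The division side held Cs_ont_8g025140 and Cs_ont_3g005550, which carry the same terms of guard mother cell differentiation, the G1/S transition, sucrose and cytokinin responses, and the KEGG pathway of plant hormone signal transduction. Cs_ont_8g025140 reached 72.7 FPKM in T2, against 8.01 in CK2, 18.2 in CK3, 2.69 in CK1, 5.91 in T1 and 1.04 in T3. Cs_ont_3g005550 reached 72.1 FPKM in T2, against 26.4 in CK2, 24.8 in CK3, 10.97 in CK1, 13.0 in T1 and 3.59 in T3. Both thus set T2 apart from the CK libraries as well, and whether reads of these 2 genes can be told apart by sequence was not analysed here. Cs_ont_2g025340, a DNA-binding transcription factor annotated to guard mother cell differentiation and to freezing, stood at 41.9, 26.7 and 48.9 FPKM in CK2, CK3 and T2. Its low libraries were at 14.4, 12.9 and 9.06 FPKM in CK1, T1 and T3, the smallest difference of the 8, at 1.60.

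The other stomatal genes of the set were Cs_ont_3g006040, annotated to protein kinase binding and guard cell differentiation, and Cs_ont_1g021430, annotated to guard cell differentiation without a molecular function. The first stood at 15.3, 9.51 and 16.4 FPKM in CK2, CK3 and T2 and at 3.83, 3.39 and 1.18 in CK1, T1 and T3. The second stood at 7.70, 7.07 and 10.5 FPKM in the high libraries and at 2.10, 1.75 and 1.79 in the low ones. Summed over the 8 genes, the level was 321, 229 and 363 FPKM in CK2, CK3 and T2 and 84.8, 80.6 and 42.1 FPKM in CK1, T1 and T3.

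**Figure D2:**
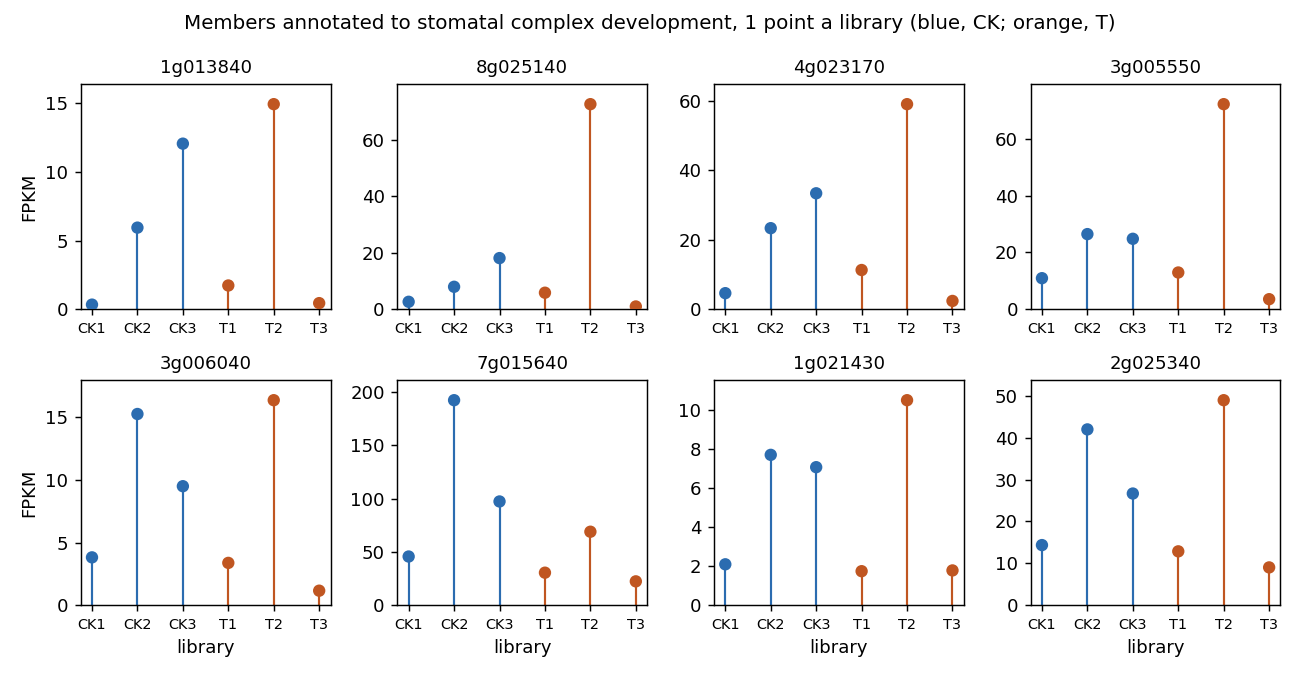
FPKM of the 8 genes annotated to stomatal complex development in each library, 1 panel a gene named without its Cs_ont_ prefix, with CK in blue and T in orange on linear axes that start at 0. CK2, CK3 and T2 stand above the other libraries in every panel, as the choice of genes requires, and T2 is the highest library in 7 of the 8.

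The remaining 14 stomatal genes above the mean FPKM of 5 were those that the rule left out, so smaller differences among them follow from that choice. Their differences of means of y ran from -0.43 to 1.64 with a median of 0.29, 12 of the 14 were above 0, and 3 had CK2, CK3 and T2 all above the rest. Over all 22 genes the median was 1.18, against 0.07 over the 13154 genes, of which 59.2% were above 0. The 22 include the genes of the set, which were chosen for a large difference, and the term was picked after the values were seen. The 1.18 is thus a description and cannot tell whether stomatal genes as a group stood higher in CK2, CK3 and T2. Cs_ont_6g012410, annotated to cyclin binding and guard mother cell differentiation, had a difference of 1.64 but missed the set because CK3, at 11.8 FPKM, lay under CK1 at 12.3. Cs_ont_6g003000, a cyclin-dependent kinase of the same process, stood at 30.2, 38.5 and 53.1 FPKM in CK2, CK3 and T2 and at 29.1, 37.4 and 32.4 in CK1, T1 and T3, so its libraries overlapped. Below the mean of 5, Cs_ont_9g004690, a transcription factor at 1.12, 3.25 and 4.65 FPKM in the high libraries and at most 0.454 in the low ones, kept the order of the set. These 3 genes were singled out after their values were seen.

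Division genes outside the stomatal term were few in the set. Of 116 mitotic cell cycle genes with the mean FPKM of 5, 3 were in the set, 2.59% against 1.24% of all such genes, and 2 of the 3 were the stomatal genes Cs_ont_8g025140 and Cs_ont_3g005550. The third, Cs_ont_5g005300, an RNA-binding gene annotated to cell cycle checkpoints, stood at 2.51, 3.77 and 10.6 FPKM in CK2, CK3 and T2 and at 0.754, 0.968 and 0.901 in CK1, T1 and T3. With the genes of the set left out, the summed level of the mitotic list was 3018, 3185 and 3339 FPKM in CK2, CK3 and T2 and 2457, 2705 and 2616 FPKM in CK1, T1 and T3. Of the 156 mitotic genes tested, 85.9% had a higher mean y in the high libraries, against 60.8% of the 16421 tested genes. In 54 of the 156 (34.6%), CK2, CK3 and T2 all lay above the other libraries, against 14.5% of all tested genes. In sum the 3 high libraries were thus also above the low ones, with CK1 and not T3 the lowest. The median difference of the 156 genes was 0.37. The values over the 156 include the 3 genes of the set. The rule asks for at least 1.5 in the set, so its differences are not compared with 0.37. Of 40 tested KEGG DNA replication genes, 39 had a higher mean y in the high libraries, with a median difference of 0.45. For the GO term it was 72 of 86, 1 of the set included, with a median of 0.36.

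The set held 4 further genes annotated to the cytoskeleton or to replication, and all 4 were highest in T2. Cs_ont_5g007690, a minus-end-directed microtubule motor, reached 23.7 FPKM in T2, against 6.54 in CK2, 7.83 in CK3 and 1.99, 5.26 and 2.80 in CK1, T1 and T3. Cs_ont_6g019440, annotated to cortical microtubules, reached 24.3 FPKM in T2, while CK2 (6.18) and T1 (6.15) were level. Cs_ont_7g002750, of the MCM complex that acts in DNA replication, stood at 9.68, 8.44 and 17.0 FPKM in CK2, CK3 and T2 and at 4.22, 3.50 and 2.14 in CK1, T1 and T3. Cs_ont_3g015500, annotated to actin binding, reached 32.1 FPKM in T2 and was at 6.21 in CK2, 10.2 in CK3, 1.45 in CK1, 1.81 in T1 and 0.0681 in T3. Its difference of 2.83 was among the largest of the annotated genes.

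**Figure D3:**
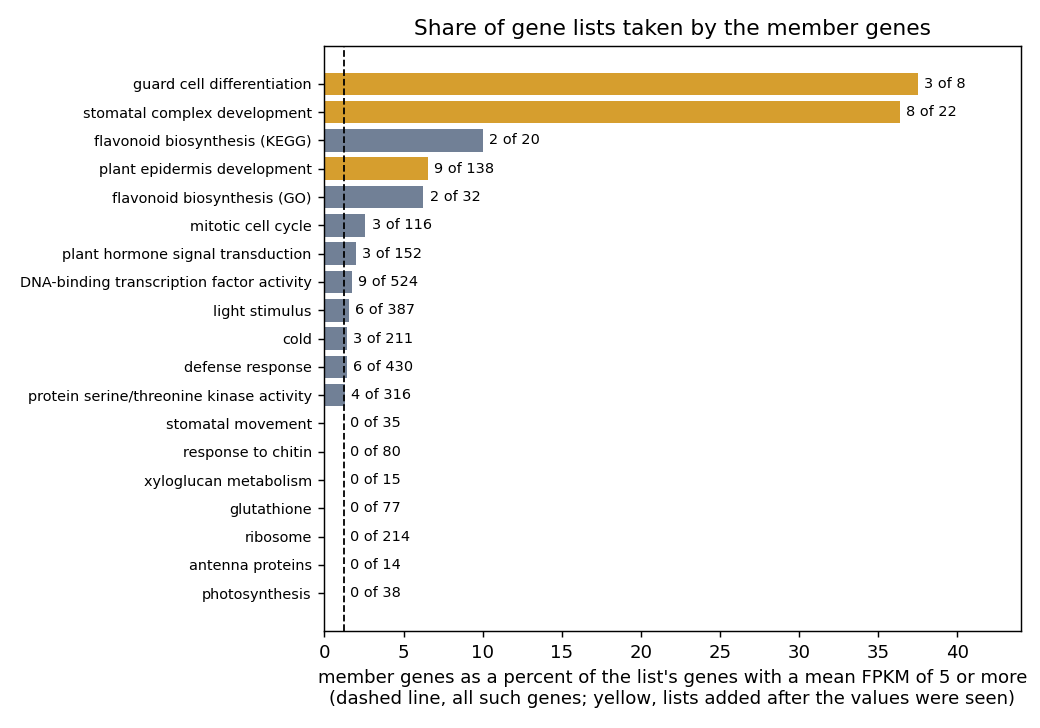
Share of the genes of a list, among those with a mean FPKM of at least 5 in either set of 3 libraries, that belong to the 163 genes, with the count at each bar and the share of all such genes (1.24%) as a dashed line. Stomatal complex development (8 of 22) and guard cell differentiation (3 of 8), both picked after the values were seen, have the longest bars. The 3 genes of the second list are also among the 8 of the first. Stomatal movement, photosynthesis, antenna proteins and ribosome have no bar.

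Wall genes of the set showed different orders among the high libraries. Cs_ont_5g007840, annotated as a cellulase, reached 32.4 FPKM in T2, against 4.27 in CK2, 7.51 in CK3, 0.806 in CK1, 3.40 in T1 and 0.0227 in T3. Cs_ont_2g013220, a cellulase as well, reached 15.9 FPKM in T2, against 3.59 and 2.83 in CK2 and CK3 and 0.992, 2.60 and 0.170 in CK1, T1 and T3. In both, T2 was far above CK2 and CK3. The polygalacturonase Cs_ont_7g024360, an enzyme class that cuts pectin, had the opposite order, with 25.4 and 16.3 FPKM in CK2 and CK3 and 5.52 in T2, above 3.39, 1.31 and 1.24 in CK1, T1 and T3. The pectinesterase Cs_ont_5g007860, of a class that removes methyl groups from pectin, stood at 39.7, 21.3 and 33.2 FPKM in CK2, CK3 and T2, at 12.6 and 10.1 in CK1 and T1, and at 0.712 in T3. T3 was the lowest library for all 7 genes grouped here as wall genes, the others being Cs_ont_5g044630, Cs_ont_9g011940 and Cs_ont_2g021550. Cs_ont_5g044630 and Cs_ont_9g011940 were placed here by the KEGG pathway of pentose and glucuronate interconversions, not by a wall term. Of 265 cell wall genes with the mean FPKM of 5, 2 (0.755%) were in the set and 5 (1.89%) in its mirror. Over all such genes the shares were 1.24% and 0.715%. Of cell wall modification it was 2 of 37 (5.41%) and 4 (10.8%). Of xyloglucan metabolism it was 0 of 15 and 4 (26.7%), and 0 of 15 is too few genes to set apart from 1.24%.

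Flavonoid genes of the set included enzymes from the first steps of the pathway. Cs_ont_9g012610, a naringenin-chalcone synthase, the enzyme that makes the chalcone backbone, stood at 6.95, 4.14 and 4.30 FPKM in CK2, CK3 and T2 and at 0.559, 0.339 and 0.0946 in CK1, T1 and T3. Cs_ont_7g003040, a chalcone isomerase, which closes that backbone to a flavanone, stood at 18.5, 56.1 and 31.5 FPKM in the high libraries and at 5.54, 11.5 and 4.97 in CK1, T1 and T3. Cs_ont_2g025700, in the KEGG pathways of flavonoid biosynthesis and circadian rhythm, stood at 15.6, 60.1 and 40.5 FPKM against 3.34, 5.53 and 3.15. CK3 was the highest library for 3 of the 5 flavonoid genes grouped here and T2 for 1 of them. Cs_ont_9g014840, a flavonol rhamnosyltransferase, reached 16.5 FPKM in CK3, and Cs_ont_3g021790, a quercetin glucosyltransferase, was nearly level in the high libraries at 46.4, 46.9 and 48.3 FPKM. Of 20 KEGG flavonoid pathway genes with the mean FPKM of 5, 2 (10%) were in the set. Of the GO process it was 2 of 32 (6.25%), and over all such genes 1.24%. The other genes of the KEGG pathway summed to 695, 1025 and 897 FPKM in CK2, CK3 and T2 and to 773, 885 and 847 FPKM in CK1, T1 and T3, so in sum CK2 was the lowest library. By gene, 21 of the 24 tested genes of this pathway, the 2 of the set included, had a higher mean y in the high libraries, with a median difference of 0.49, while 17 of 35 did for the GO process.

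The most abundant gene of the set was Cs_ont_6g001170, annotated to gibberellin signalling, redox homeostasis and the extracellular region. It stood at 308, 259 and 466 FPKM in CK2, CK3 and T2, at 175 in T1, 58.4 in CK1 and 26.3 in T3. T1 thus lay closer to CK3 than to T3 for this gene. For 2 further hormone genes T2 was the lowest of the high libraries. Cs_ont_8g002260, an abscisic acid 8'-hydroxylase, which breaks the hormone down, stood at 14.2, 22.8 and 7.04 FPKM in CK2, CK3 and T2 and at 3.65, 1.78 and 3.91 in CK1, T1 and T3. Cs_ont_9g027570, a serine/threonine phosphatase of the hormone pathway, reached 21.9 FPKM in CK3 and stood at 3.94 in CK2, 1.88 in T2 and at most 0.913 in the low libraries. Of 152 hormone signalling genes with the mean FPKM of 5, 3 were in the set, 1.97% against 1.24% of all such genes.

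**Figure D4:**
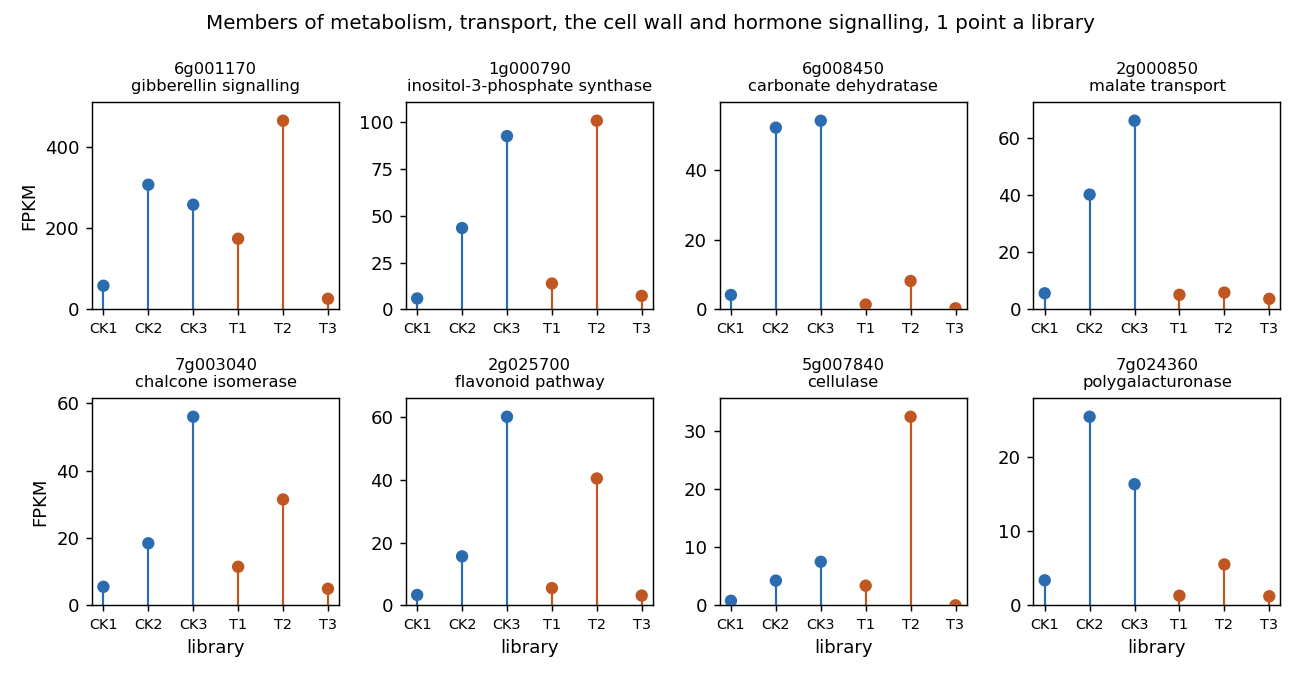
FPKM in each library for 8 genes of hormone signalling, metabolism, transport, flavonoid biosynthesis and the wall, named without the Cs_ont_ prefix, with CK in blue and T in orange on linear axes that start at 0. T2 stands far under CK2 and CK3 for carbonate dehydratase and malate transport (8.13 and 5.90 FPKM), and above both for cellulase (32.4 FPKM).

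The largest difference of the set, 3.56, was that of Cs_ont_6g008450, a carbonate dehydratase, which interconverts carbon dioxide and bicarbonate. It stood at 52.1 and 54.1 FPKM in CK2 and CK3 and at 8.13 in T2, above 4.14, 1.39 and 0.317 in CK1, T1 and T3. Cs_ont_2g000850, a vacuolar malate transporter, stood at 40.2 and 66.1 FPKM in CK2 and CK3, while T2 (5.90) was close to CK1 (5.65) and T1 (5.12). Both were thus high mainly in 2 CK libraries. Cs_ont_1g000790, an inositol-3-phosphate synthase, the entry step of inositol synthesis, was high in T2 as well, at 43.5, 92.7 and 101 FPKM in CK2, CK3 and T2, against 5.86, 13.9 and 7.24 in CK1, T1 and T3. Cs_ont_3g005570, annotated as an asparaginase and an aspartic endopeptidase, stood at 31.9, 93.4 and 46.5 FPKM against 5.89, 5.54 and 8.91.

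Lipid genes included Cs_ont_2g034070, an endoplasmic reticulum gene annotated as a phosphatidylcholine monooxygenase and to unsaturated fatty acids, at 83.8, 47.0 and 128 FPKM in CK2, CK3 and T2. T1 was at 46.9 FPKM, next to CK3, with CK1 at 26.3 and T3 at 8.45. Cs_ont_1g019890, of cutin, suberin and wax biosynthesis, the surface coat of the epidermis, stood at 16.1, 10.5 and 15.003 FPKM in the high libraries and at 4.95, 5.05 and 1.83 in CK1, T1 and T3. Cs_ont_2g015000, annotated to fatty acid binding and salicylic acid signalling, stood at 49.3, 39.6 and 28.02 FPKM against 10.8, 17.7 and 3.07. Cs_ont_5g024900, annotated to the response to fungus, stood at 202, 126 and 84.1 FPKM in CK2, CK3 and T2 against 40.4, 10.6 and 36.3 in CK1, T1 and T3. T3 was the lowest library for the 6 lipid genes grouped here.

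Of 524 DNA-binding transcription factor genes with the mean FPKM of 5, 9 were in the set, 1.72% against 1.24%. Cs_ont_5g000840, annotated to shade avoidance and far-red light, was the most abundant, at 39.7, 54.1 and 60.2 FPKM in CK2, CK3 and T2 and 15.3, 18.3 and 13.3 in CK1, T1 and T3. Cs_ont_3g003100 reached 21.6 FPKM in T2 but was at 2.47 and 3.57 in CK2 and CK3, close to T1 at 1.82. Cs_ont_4g012360, annotated to petal and ovule development, stood at 8.33, 15.2 and 18.8 FPKM, against 3.62, 1.76 and 0.116 in CK1, T1 and T3. Cs_ont_3g005320, annotated to red light and circadian rhythm, stood at 13.5, 13.1 and 18.3 FPKM against 4.26, 9.70 and 1.92. Receptor kinases without a stomatal term were Cs_ont_5g001770, at 4.16, 7.42 and 10.9 FPKM against 1.43, 3.11 and 0.280, and 3 others with differences of 1.65 to 1.74. Light (6 of 387), defense (6 of 430), cold (3 of 211) and serine/threonine kinase (4 of 316) lists held shares of 1.27% to 1.55%, near the share over all genes. Cs_ont_2g031710 (mRNA binding) and Cs_ont_5g011090 (DNA binding, chromatin) were further abundant genes, at 61.5 and 91.2 FPKM in T2, and Cs_ont_3g008200, annotated to anther development and anchored in the membrane, reached 13.8 FPKM in T2 with 0.155 in T3.

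Without annotation were 82 of the 163 genes. T2 was the highest library for 52 and T3 the lowest for 72 of them, and their mean FPKM over the high libraries had a median of 13.4, against 14.7 for the annotated ones. Photosynthesis (38 genes with the mean FPKM of 5), antenna proteins (14), ribosome (214) and glutathione metabolism (77) had 0 genes in the set. Beside 1.24% over all genes, 0 in lists of this size is not read as an absence. Glutathione metabolism had 4 genes (5.19%) in the mirror set, against 0.715% over all genes. By gene, 15 of 15 tested antenna genes had a higher mean y in CK2, CK3 and T2, with a median difference of 0.58. All 15 were also lower in T than in CK by mean y, with a median of -0.53. Their sum overlapped, at 16753 FPKM in CK1 and 15372 in CK3. For photosynthesis the count by gene was 25 of 39, with a median of 0.18, while 32 of the 39 were lower in T, with a median of -0.29. Among tissues that a leaf sample could hold, secondary wall genes summed to 317, 406 and 345 FPKM in CK2, CK3 and T2 and to 216, 305 and 253 FPKM in CK1, T1 and T3. By gene, 84% of the 25 tested had a higher mean y in the high libraries, with a median difference of 0.68. In 12 (48%) CK2, CK3 and T2 all lay above the rest, against 14.5% of all tested genes, although the set held 0 of this list. Pollen genes summed to 3677 to 4082 FPKM and root genes to 8893 to 9859 FPKM, with no such order of the sums. Phloem genes summed to 119, 155 and 175 FPKM in CK1, CK2 and CK3. They summed to 285, 247 and 313 FPKM in T1, T2 and T3, above every CK library. Yet 10 of the 14 tested phloem genes were lower in T by mean y. The part that differences in leaf age or tissue make-up had in the pattern was not tested, and in whole leaves fewer cells of a type and less RNA per cell cannot be told apart.

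T2 was above both CK2 and CK3 in 105 genes, between them in 25 and below both in 33. The median of T2 minus the mean of CK2 and CK3 was 0.54 in y, and the range was -2.93 to 2.63. The first class held 7 of the 8 stomatal genes and all 5 division and cytoskeleton genes grouped here. In the 33 genes with T2 below both, the summed level was 1644 and 1365 FPKM in CK2 and CK3, 686 in T2 and 389, 289 and 173 FPKM in CK1, T1 and T3. In the 105 it was 2127, 2136 and 3989 FPKM in CK2, CK3 and T2 and 665, 991 and 325 FPKM in CK1, T1 and T3. In sum, T2 was thus above both CK libraries in the larger class and between them and the low libraries in the smaller.

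**Figure D5:**
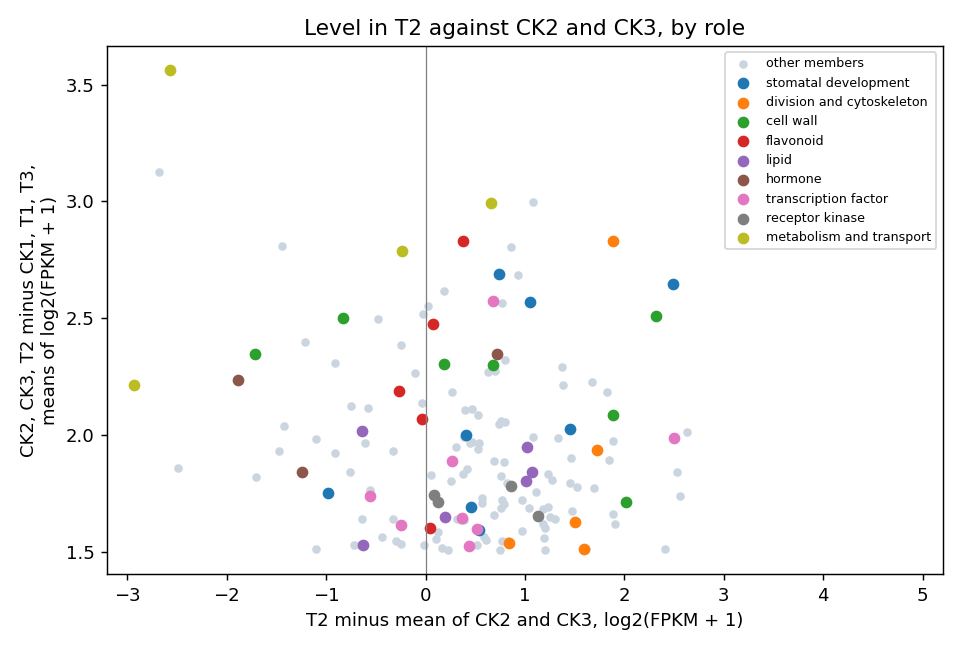
Each point is 1 of the 163 genes, with T2 minus the mean of CK2 and CK3 in log2(FPKM + 1) on the horizontal axis and the difference of the 2 means of the set on the vertical axis, coloured by the role of its annotation. Points right of the line at 0 are higher in T2, with division and cytoskeleton genes all on that side, and the carbonate dehydratase gene stands at the upper left (3.56).

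Boron supply was compared with limma on y, T against CK, over the 16421 tested genes, and all 163 genes passed its filter. The choice of the set put 2 CK and 1 T library high, so no gene of it could have all T libraries on one side of CK, a pattern that 4.46% of tested genes showed upward and 3.71% downward. With Benjamini-Hochberg adjustment and a threshold of 0.05, limma gave 1 gene higher (0.00609%) and 0 genes lower (0%) in T, and that gene was not in the set. Before adjustment 785 genes (4.78%) passed this threshold, and by limma voom, run on the recovered reads, no gene passed after adjustment. Within the set 136 genes were lower and 27 higher in T by their mean y, with a median of -0.43 against 0.02 over all tested genes. The rule, with 2 CK and 1 T library high, pulls this difference below 0, so neither the counts nor the median tell of boron supply. This median was 0.16 without T3 and -1.21 without T2, and its sign turned only without T3. By size alone, 37 of the 163 were at least 2-fold lower and 0 at least 2-fold higher in T, beside 1.7% and 2.62% of all tested genes. The rule favours this split as well. With an unadjusted p up to 0.05 required as well, 8 of the 163 were lower and 0 higher in T, beside 178 (1.08%) lower and 209 (1.27%) higher of all tested genes, and the rule leaves nothing to be read from that count. It was 0 without CK2, CK3, T1 or T3, 28 without CK1 and 45 without T2.

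Of those 8 genes, Cs_ont_6g008450 differed by -3.01 on the log2 scale (standard error 1.11), Cs_ont_2g000850 by -2.18 (0.82) and Cs_ont_7g024360 by -1.97 (0.75). Their adjusted p from limma was 0.965, 0.977 and 0.981. The lowest adjusted p of the set was 0.917, that of the unannotated Cs_ont_4g020060. The standard error of T minus CK had a median of 0.84 in the set and 0.25 over all tested genes, as the split of both groups between high and low libraries makes it. Of 28 stomatal development genes tested, 1 was higher and 0 lower in T at the fold and p cut-offs. The flavonoid pathway had 1 and 0 of 24, the mitotic cell cycle 1 and 0 of 156, hormone signalling 2 and 2 of 184, and transcription factors 6 and 9 of 640, with 0 of each called at the adjusted threshold. The stomatal gene that passed, Cs_ont_9g006330, outside the set and named after its values were seen, stood at 5.17, 13.6 and 1.34 FPKM in T1, T2 and T3 and 1.12, 0.596 and 1.37 in CK1, CK2 and CK3, with T3 inside the CK range.

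By the number in their identifiers, the 163 genes lay on all 9 chromosomes, with 34 on chromosome 5 and 9 each on chromosomes 6 and 8, or 0.745% to 1.66% of each chromosome's genes with the mean FPKM of 5. In the table's gene order there were 3 pairs of neighbours and 2 pairs with 1 gene between them. The latter were Cs_ont_3g005550 with Cs_ont_3g005570, and the cellulase Cs_ont_5g007840 with the pectinesterase Cs_ont_5g007860. Cs_ont_5g024890 (tryptophan metabolism) and Cs_ont_5g024900 (response to fungus) were neighbours, the first at 4.20, 7.81 and 10.3 FPKM in CK2, CK3 and T2 and 0.503, 1.37 and 1.05 in CK1, T1 and T3. Promoter and protein sequences of these genes were not used here.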

How the data were processed

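RNA-seq of 6 leaf libraries, 3 CK and 3 T, was used, with groups taken from the library titles. Per the study's methods, the authors used fastp for trimming, HISAT2 for alignment and HTSeq for counting, and deposited the counts as FPKM per gene. The study names a version of the sweet orange genome among its resources but does not state that the reads were aligned to it, and tool versions are not given. Beside FPKM, the deposited table holds group averages and the authors' log2 fold change, p-value and up or down call, which were not used. GO and KEGG annotations come from it.

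Reads per gene and library totals were recovered from the FPKM steps. For all 22740 genes above 0 (100%) they came out whole within 0.001 read, and reads in genes were 99.5% to 99.6% of the totals. Precision between groups is limited by 3 libraries each.

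The member genes were picked by the stated rule. T was compared with CK by limma 3.58.1 in R 4.3.3 (lmFit, eBayes with trend) on log2(FPKM + 1), two-sided, with p-values adjusted by Benjamini-Hochberg over 16421 genes. Fold changes on this scale understate the change of low genes. The fit was tested on simulated data. Counts, lists and plots were made with Python 3.11.15 (numpy 2.4.6, pandas 2.3.3, matplotlib 3.10.9).

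The members and lists were chosen with earlier results of these data known. Genes named were the 10 most abundant and the 10 with the largest difference that had an annotation, 2 of each fixed list with at least 3 members, and the 3 on each side of the threshold. The stomatal and epidermal lists, and the other genes described by role, were chosen after the values were seen. Alternatives were pseudocounts of 0.1 and 0.01, other filters, thresholds and scaling, a replicate block and leaving out each library. Limma voom was added after seeing the data.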

Additional observations from a re-analysis of the deposited data

How the results depend on the processing

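The number of genes in the set moved with its thresholds. It was 246 with a pseudocount of 0.1, 436 with a difference of at least 1 and 57 with at least 2, and 126 under median-of-ratios scaling, all 126 of them among the 163. With the rule applied to 5 libraries it was 117 (without T3) to 407 (without T1), and 96 to 158 of the 163 stayed in. The differences of the 30 named members of the set ran from 1.07 to 4.42 under the alternatives. The median over them was 1.74 to 2.32 when a library was left out. The rule puts every high library above every low one. Leaving out a library or changing the pseudocount thus could not turn their sign, and only the size is informative. The pseudocount of 0.1 moved 8 of the 30 by more than the spread between libraries. The adjusted threshold of limma gave 1 gene for T against CK, but 0 with no filter, 0 with the replicate block, 0 with limma voom and 0 to 2 without a library. The fold and p cut-offs gave 137 genes higher in T with a filter at 5 FPKM, where fewer genes were tested, and 121 to 398 higher and 120 to 396 lower without a library. The median T minus CK difference of the set was -1.21 to 0.16 without a library, its sign turning without T3. Same-numbered CK and T libraries deviated together with r of 0.28, 0.21 and -0.04, and differently numbered ones with -0.40 to 0.23. With 3 libraries in each group, these values cannot tell whether the numbers pair them. With the replicate block, 14 of the set passed the fold and p cut-offs instead of 8, and by limma voom 3 did. The causes of these shifts were not tested. Low counts limit the values of the 31 genes with under 10 reads in their lowest library.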
